A study of Mus musculus with 4 samples.

Results

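Transcripts of 9 genes of the phosphoinositide 3-kinase (PI3K) pathway were followed in the mouse line Ba/F3 with and without the fusion kinase BCR-ABL. They are 4 catalytic subunits (Pik3ca, Pik3cb, Pik3cd, Pik3cg), 3 regulatory subunits (Pik3r1, Pik3r2, Pik3r5), the membrane inhibitor Pik3ip1 and the lipid phosphatase Inpp5d, also called SHIP1. The genes were chosen by symbol: each is the only symbol that the platform annotation gives for its probe set, and all 9 were found among the 19935 genes compared. Each had 1 probe set, so no averaging entered their values.

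PI3K adds a phosphate to the membrane lipid PIP2 and makes PIP3, which recruits kinases such as AKT and the TEC family to the membrane. Class IA enzymes pair a catalytic subunit (alpha, beta or delta) with a p85-type regulatory subunit and act below tyrosine kinases and cytokine receptors. The class IB enzyme pairs the gamma catalytic subunit with Pik3r5 or Pik3r6 and acts mainly below G-protein-coupled receptors. The delta and gamma subunits are found mainly in leukocytes, whereas alpha and beta are made in most cells. Inpp5d removes the 5-phosphate from PIP3 in blood cells, and Pik3ip1 is a membrane protein that binds the catalytic subunit and restrains it. BCR-ABL, the tyrosine kinase of chronic myeloid leukaemia, signals through PI3K among other routes.

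Ba/F3 is an interleukin-3 (IL-3) dependent pro-B cell line. RNA was read on 4 Affymetrix Gene 1.0 ST arrays, in 3 groups: parental cells grown with IL-3 (n = 1), cells of a line with doxycycline-inducible BCR-ABL grown in 500 ng/ml doxycycline without IL-3 (n = 2, arrays A and B), and cells of that inducible line in the same doxycycline dose with IL-3 (n = 1). All cells were in RPMI medium with serum and were taken in logarithmic growth, and the submitters asked which genes BCR-ABL and the growth factor drive in connection with imatinib resistance. The labels do not say whether the inducible line is 1 clone, whether the parental cells received doxycycline, or whether separate cultures gave A and B, so the p-values measure only the spread between these arrays, which may be technical. Every deposited value is a difference from the parental array, which stands at 0 for each probe set. Values are read as log2, the base not being stated, and fold changes below depend on that reading. Because exact levels cannot be recovered, the pro-B identity of the cells was not checked from marker levels, and no gene's level is set against another's. Only a coarse sign of low signal, called dim and defined with the processing below, is available.

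On the scale of all genes, array B stood slightly apart: the median log2 difference from the parental array over all probe sets was -0.064 on B, against -0.0016 on A and 0.0029 on the array with IL-3. Precision is limited by the number of arrays. In the pro-B and B cell list, 0 of 11 measured markers passed the test between BCR-ABL cells without IL-3 and parental cells, with differences from -0.41 to 0.17. Over all genes 8.06% passed in this comparison. Several markers of this list and of the lists that follow rest on dim probe sets, among them Ebf1, Rag1, Il7r, Kit, Mcpt1, Elane, Mpo, Cd4 and Alas2. For such genes not passing shows little. Of 10 mast cell markers Cpa3 (3.04) and Hdc (0.74) were higher, of 8 neutrophil and monocyte markers Cd68 (1.17) was higher, of 4 erythroid markers Klf1 (-0.92) and Epor (-0.70) were lower, and of 6 T and NK cell markers 0 passed. The part of these shifts in the results on PI3K genes was not tested. In such bulk RNA, fewer cells of a type and less RNA per cell cannot be told apart. The fusion's partner genes Abl1 (-0.02) and Bcr (0.16) did not pass, and whether their probes can detect the fusion transcript was not analysed here.

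The first question was how transcripts of the PI3K module differ when BCR-ABL replaces IL-3. The gamma subunit gene Pik3cg and the delta subunit gene Pik3cd rose, the inhibitor gene Pik3ip1 fell, and the other 6 genes did not pass the test. Here and below a called gene is one whose limma p, adjusted by Benjamini and Hochberg over all genes, lay under 0.05. Of 9 genes 2 were called higher and 1 lower, where 5.19% of all genes were called higher and 2.87% lower, or 8.06% in all. With arrays centred on the median of all probe sets these counts were 1 higher and 1 lower of 9, against 2.86% of all genes called, as Pik3cd no longer passed. None of the 9 genes is dim, and dim genes were called less often. Without dim probe sets the counts stayed at 2 higher and 1 lower of 9, against 11.6% of 12856 genes called. The genes were chosen with earlier results of these data known, so these counts are a description. The median absolute log2 difference was 0.291 over the 9 genes and 0.116 over all genes, while the signed medians were -0.062 and -0.038. All genes here include the dim ones, and no median absolute difference was taken without them.

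The DNA before the starts of the 3 called genes is shown because their transcripts passed the test. The lines give the 250 bases before the first-listed RefSeq start (build GRCm38.p6), 5′ to 3′, with any GC box in capitals. For all 3 genes this start lies within the gene's annotated span given below, not at its outer end, though for Pik3cg it is close to that end.
Pik3cg, chr12:32208660-32208909, minus strand: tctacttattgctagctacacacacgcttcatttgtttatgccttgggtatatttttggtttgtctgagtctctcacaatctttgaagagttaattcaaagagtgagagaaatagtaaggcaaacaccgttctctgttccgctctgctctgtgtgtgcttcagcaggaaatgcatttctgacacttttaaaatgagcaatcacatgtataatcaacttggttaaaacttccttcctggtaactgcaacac
Pik3cd, chr4:149698709-149698958, minus strand: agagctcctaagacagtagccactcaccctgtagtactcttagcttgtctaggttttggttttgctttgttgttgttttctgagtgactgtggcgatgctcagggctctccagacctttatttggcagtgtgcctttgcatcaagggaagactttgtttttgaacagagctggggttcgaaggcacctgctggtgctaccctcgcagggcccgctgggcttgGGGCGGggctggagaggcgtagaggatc
Pik3ip1, chr11:3330481-3330730, plus strand: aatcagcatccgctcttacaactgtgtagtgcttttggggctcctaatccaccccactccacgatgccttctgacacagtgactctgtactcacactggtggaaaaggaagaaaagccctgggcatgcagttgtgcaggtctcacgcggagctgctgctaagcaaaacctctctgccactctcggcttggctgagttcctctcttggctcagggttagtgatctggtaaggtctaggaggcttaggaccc
RefSeq windows from 250 bases before to 50 bases after a start were found for all 9 genes, 13 windows in total, as Pik3cd has 3 starts and Pik3cg and Pik3r1 have 2 each. The Pik3cg windows overlap. The windows were searched on both strands for the GC box (GGGCGG), the forkhead core (GTAAACA), a STAT element (TTCNNNGAA) and the E-box (CACGTG). A GC box occurred in 7 of the 13 windows, which belong to 6 genes, and in 35.7% of 32851 windows over all genes. The forkhead core occurred in 1 window, the second one of Pik3cg, and in 3.65% over all genes. The STAT element and the E-box occurred in 0 of the 13 windows, against 8.3% and 7.15%. The 300 bases of Pik3ip1 held none of these letters. These matches describe the sequence and do not mark binding sites.

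Among the catalytic subunits, Pik3cg encodes the gamma subunit of class IB PI3K and lies on chromosome 12 (12:32173397-32208677, GRCm38.p6). Its log2 difference from the parental array was 0.99 on A, 0.92 on B and 0.94 on the array with IL-3. All 3 BCR-ABL arrays were high by nearly the same amount. These values, like all others here, are set against the same single parental array, whose own spread is unknown, so any error in it shifts the 3 arrays alike. BCR-ABL cells without IL-3 were 1.94-fold above parental cells (log2 0.96, SE 0.15, 95% interval 0.63 to 1.28, limma adjusted p = 0.000499). With arrays centred on the median of all probe sets the limma adjusted p was 0.025. Only 1.37% of all genes had a higher difference in this comparison.

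Pik3cd encodes the delta subunit of class IA PI3K on chromosome 4 (4:149649168-149702566). It stood at 0.69 on A, 0.51 on B and 0.56 on the array with IL-3. Again the 3 BCR-ABL arrays were all above the parental array, with the array with IL-3 between A and B. The gene was 1.51-fold higher without IL-3 (log2 0.60, SE 0.16, 95% interval 0.27 to 0.93, limma adjusted p = 0.0221). This call is close to the threshold: with arrays centred on the median of all probe sets the difference was 0.63 with a limma adjusted p of 0.0658, and after centring on the median of the genes compared, an alternative added after seeing the data, the adjusted p was 0.0453.

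Neither of the catalytic subunits made in most cells passed, and both had values below 0 on the 3 BCR-ABL arrays. Pik3ca, the alpha subunit gene on chromosome 3 (3:32397065-32466112), was at -0.32 on A, -0.26 on B and -0.50 on the array with IL-3. The array with IL-3 was the lowest, and the fitted difference without IL-3 of -0.29 had a 95% interval of -0.61 to 0.03 (limma adjusted p = 0.385). Pik3cb, the beta subunit gene on chromosome 9 (9:99038402-99140235), was at -0.25, -0.13 and -0.06 on A, B and the array with IL-3. Its fitted difference was -0.19 (95% interval -0.52 to 0.13, limma adjusted p = 0.734). Whether Pik3cd and Pik3cg differ from Pik3ca and Pik3cb in their response was not tested.

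**Figure D1:**
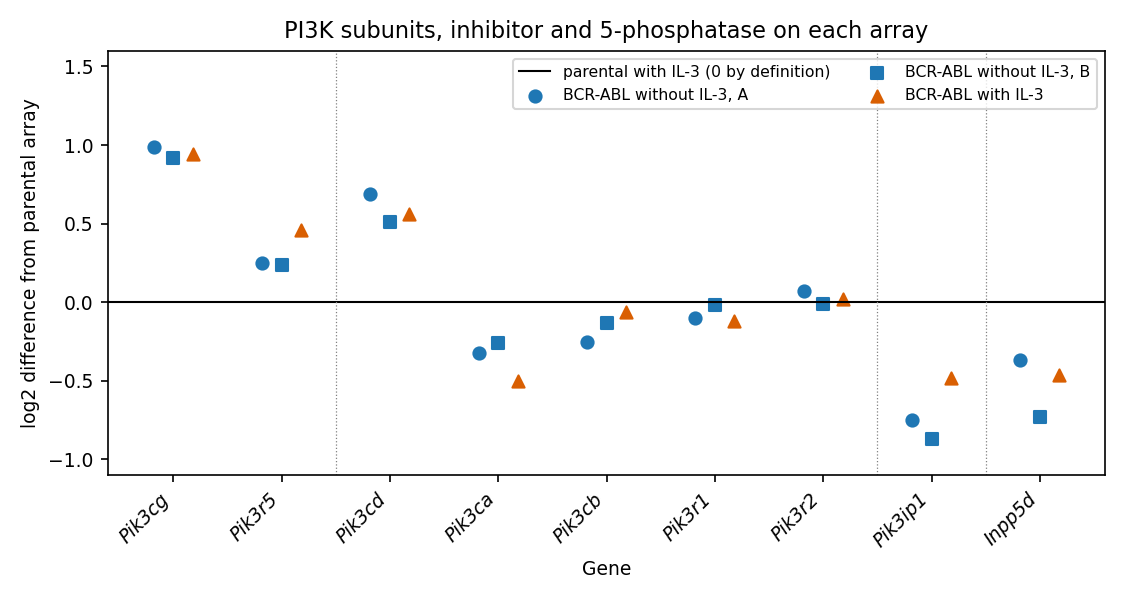
Log2 difference from the parental array (vertical axis) for each of the 9 genes (horizontal axis), with circles for array A, squares for array B, triangles for the BCR-ABL array with IL-3 and the parental array as the line at 0. Pik3cg lies between 0.92 and 0.99 and Pik3cd between 0.51 and 0.69 on the 3 BCR-ABL arrays, and Pik3ip1 and Inpp5d lie below 0 on each of them.

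None of the 3 regulatory subunits passed. Pik3r1, which encodes the p85 alpha subunit that stabilises and restrains class IA catalytic subunits, lies on chromosome 13 (13:101680761-101768217) and was at -0.10 on A, -0.02 on B and -0.12 with IL-3. Its fitted difference without IL-3 was -0.06 (95% interval -0.39 to 0.26). Pik3r2, which encodes p85 beta on chromosome 8 (8:70768176-70776712), was at 0.07, -0.01 and 0.02 and was the only one of the 9 genes with A and B on different sides of the parental array. Its fitted difference was 0.03 (95% interval -0.30 to 0.35), and 85.6% of all genes had a larger absolute difference. These intervals exclude a rise or fall of 1.5-fold for both p85 genes under the fit's assumption that single arrays vary like A and B.

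Pik3r5, the adaptor of the gamma subunit on chromosome 11 (11:68432125-68497849), was at 0.25 on A, 0.24 on B and 0.46 on the array with IL-3. The 3 BCR-ABL arrays were above the parental array, and A and B lay 0.01 apart. The fitted difference without IL-3 was 0.25 (95% interval -0.07 to 0.57, limma adjusted p = 0.524), so Pik3r5 did not pass. Pik3r6, the other gamma adaptor, stood at 0.16, 0.35 and 0.70 on the same arrays and did not pass either (0.26 without IL-3, limma adjusted p = 0.517).

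The inhibitor and the phosphatase stood below the parental value on all 3 BCR-ABL arrays. Pik3ip1, the membrane inhibitor on chromosome 11 (11:3319241-3342971), was at -0.75 on A, -0.87 on B and -0.48 on the array with IL-3. All 3 BCR-ABL arrays were below the parental array, and A and B were lower than the array with IL-3. Without IL-3 it was 1.75-fold lower (log2 -0.81, SE 0.15, 95% interval -1.14 to -0.49, limma adjusted p = 0.00218), and 1.08% of all genes had a lower difference. With arrays centred on the median of all probe sets its limma adjusted p was 0.0392.

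Inpp5d, the 5-phosphatase on chromosome 1 (1:87620312-87720510), was at -0.37 on A, -0.73 on B and -0.46 on the array with IL-3. A and B were 0.36 apart, the widest gap among the 9 genes, where the SD of this difference over all genes was 0.196. Its fitted difference of -0.55 (SE 0.17, 95% interval -0.91 to -0.19) missed the threshold (limma adjusted p = 0.0575, and 0.193 after centring on all probe sets). Of the 9 genes 5 were below the parental array on both A and B and 3 above it, where these shares were 42% and 27.9% over all genes.

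**Figure D2:**
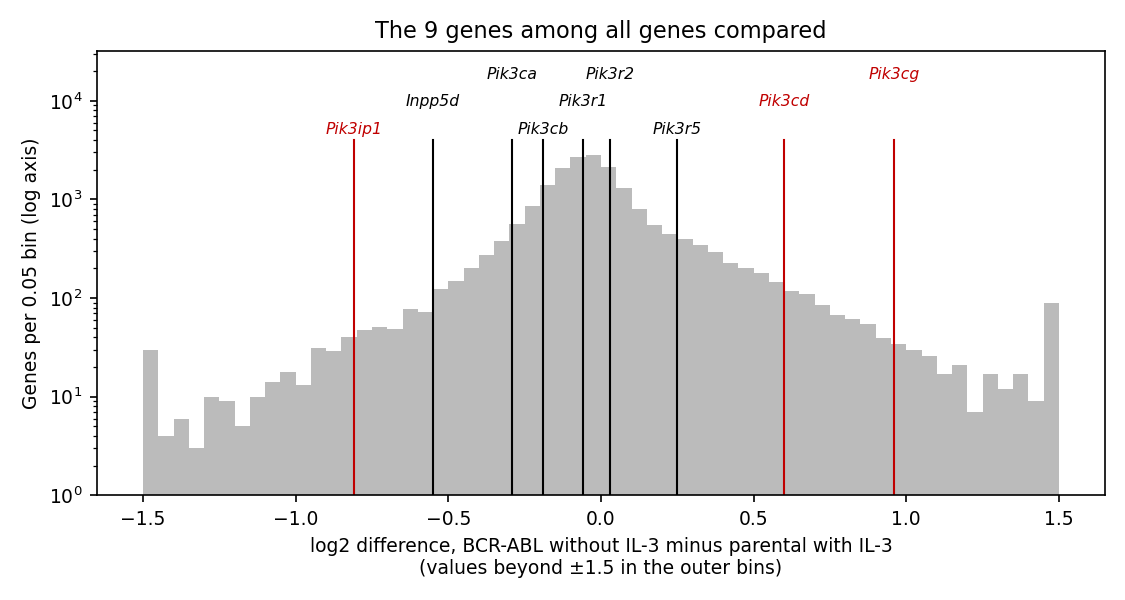
Number of genes per bin of 0.05 (vertical, log axis) by log2 difference between BCR-ABL cells without IL-3 and parental cells (horizontal axis) for all 19935 genes, with a vertical line for each of the 9 genes, red where the adjusted p was under 0.05. Pik3cg at 0.96 and Pik3ip1 at -0.81 lie in the sparse outer parts of the distribution, and Pik3r1 and Pik3r2 in its centre.

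The second question was what IL-3 adds once BCR-ABL is on, comparing the 1 array with IL-3 with A and B. None of the 9 genes was called: 0 of 9 had an adjusted p under 0.05 in limma, against 1 of 19935 genes overall (0.00502%). Over all genes the SD of the log2 difference from the array with IL-3 was 0.152 for A and 0.222 for B. Between A and B it was 0.196, so B differed from A more than the array with IL-3 did. The lack of calls therefore does not show that IL-3 adds nothing. At an unadjusted p under 0.05 there was 1 of 9, Pik3ip1, against 4.52% of all genes. Pik3ip1 stood 0.33 above A and B with IL-3 (SE 0.15, 95% interval 0.01 to 0.66, limma adjusted p = 0.9998), by 0.28 against A and 0.39 against B. The array with IL-3 thus lay between A and B on the low side and the parental array on the high side for this gene.

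For the leukocyte subunits the array with IL-3 was close to A and B. The difference was -0.02 for Pik3cg (95% interval -0.34 to 0.30) and -0.04 for Pik3cd (-0.37 to 0.29), and in both genes the array with IL-3 fell between A and B. Pik3r5 was 0.21 higher (95% interval -0.11 to 0.53), by 0.20 against A and 0.21 against B. Pik3ca was 0.21 lower on the log2 scale, with values of -0.18 against A and -0.24 against B. Neither passed, and each interval allows changes of either sign. Pik3cb (0.14), Inpp5d (0.09), Pik3r1 (-0.06) and Pik3r2 (-0.01) showed smaller differences. Over the 9 genes the array with IL-3 was above both A and B for 3 and below both for 2, where these shares were 39.9% and 25.5% over all genes. The median absolute difference was 0.092 for the 9 genes and 0.096 for all genes.

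**Figure D3:**
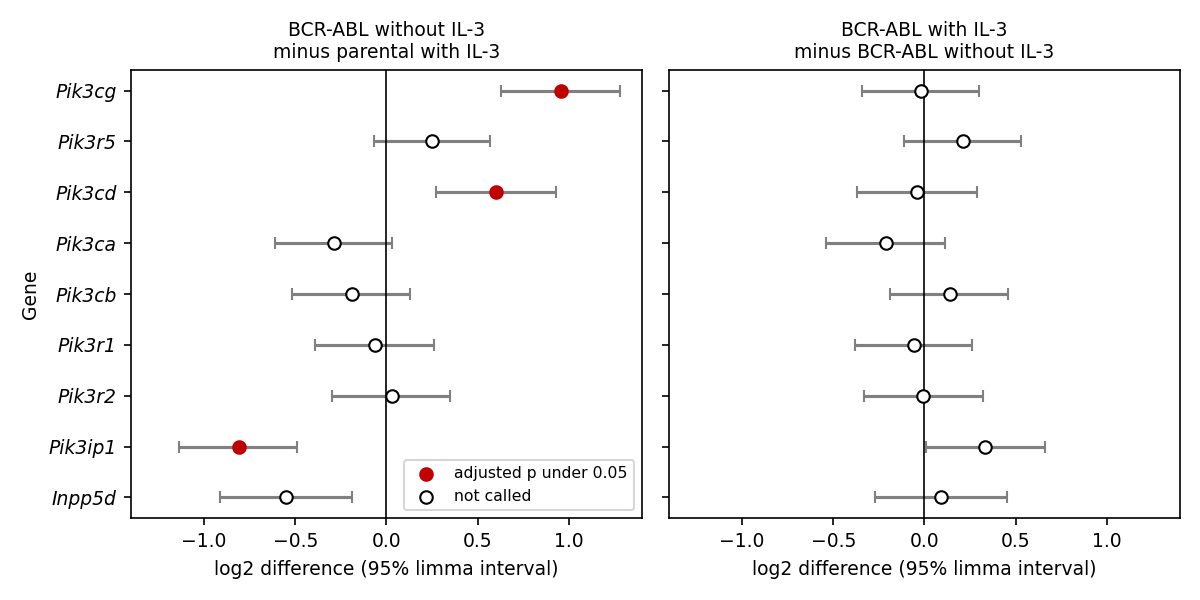
Fitted log2 differences (horizontal axes) with 95% limma intervals for the 9 genes (vertical axis), left for BCR-ABL without IL-3 minus parental cells and right for BCR-ABL with IL-3 minus BCR-ABL without IL-3. Filled red points passed at an adjusted p under 0.05: Pik3cg, Pik3cd and Pik3ip1 on the left and none on the right.

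The third comparison set the BCR-ABL array with IL-3 against the parental array, both grown with IL-3, and had 1 array a side and no test. With a line drawn at 1.5-fold, 1 of 9 genes lay past it upwards and 0 downwards, against 3.3% and 2.53% of all genes, or 5.83% in all. That gene was Pik3cg, 1.91-fold higher, and 1.24% of all genes had a higher value. Pik3cd was 1.48-fold higher, just inside the line, and Pik3r5 was 1.37-fold higher. Pik3ca was 1.42-fold, Pik3ip1 1.39-fold and Inpp5d 1.37-fold lower. Pik3cb, Pik3r1 and Pik3r2 were within 1.09-fold of the parental array. This comparison shares the parental array with the first and the array with IL-3 with the second, so their values are not independent.

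Read across the 4 arrays, Pik3cg and Pik3cd were lowest in parental cells, and their order among the BCR-ABL arrays (A, then with IL-3, then B) fell within the spread of A and B. Pik3ip1 was highest in parental cells, followed by the array with IL-3, then A, then B. For Inpp5d the parental array was highest, and the array with IL-3 lay between A and B. Pik3ca was highest in parental cells and lowest with IL-3, and Pik3r5 was lowest in parental cells and highest with IL-3.

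Genes with the most similar values were named by Euclidean distance over 3 differences from the parental array (A, B and with IL-3). Predicted and clone-named genes, olfactory receptors and small RNAs were left out first, so some of them may lie nearer. Nearest to Pik3cg, the gene with the highest difference among the 9, were Hbegf (distance 0.0371), Bcl2l1 (0.0585), Tgfb1 (0.0693), Pkd1l3 (0.0738) and Ifi27 (0.079). Hbegf stood at 1.03 on A, 0.92 on B and 0.92 with IL-3. Nearest to Pik3ip1, the lowest, were Tmc4 (0.0569), Ezh1 (0.0843), Acss1 (0.0925), Tap2 (0.0936) and Pnpla6 (0.0943), of which Acss1 is dim. Tmc4 stood at -0.72, -0.85 and -0.52. With 3 values a gene, such nearness describes these arrays and nothing more.

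The wider pathway was described with 4 lists of genes, 71 measured genes in all, of which 3 were called higher and 3 lower without IL-3 against parental cells, and 0 were called with IL-3 against without. Over all genes 5.19% were called higher and 2.87% lower. Among 13 other PI3K subunits and adaptors, Pik3r3, a further class IA regulatory subunit, was called higher (0.61, limma adjusted p = 0.0328) and the class II catalytic subunit Pik3c2g lower (-0.79, limma adjusted p = 0.0112), and the median was -0.20. Pik3r3 was at 0.43 on A, 0.78 on B and 0.12 with IL-3, and Pik3c2g at -0.53, -1.05 and -0.58, so B was the more extreme array in both. Both lost the call after centring on all probe sets, with limma adjusted p = 0.187 for Pik3r3 and 0.148 for Pik3c2g. The adaptors Gab3 (-0.54) and Gab2 (-0.39), the class III kinase Pik3c3 (-0.32) and its partner Pik3r4 (-0.29) did not pass. With IL-3 against without, 3 of these 13 had an unadjusted p under 0.05, Gab2 (0.50), Pik3r6 (0.44) and Pik3r3 (-0.48), where 4.52% of all genes did, and 0 passed after adjustment. The counts were 0 of 20, 1 of 23 and 0 of 15 in the 3 lists that follow.

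Of 20 other phosphoinositide phosphatases, Inpp5a, which acts on soluble inositol phosphates, was called higher (1.89-fold, log2 0.92, limma adjusted p = 0.000689), and the 5-phosphatase Inpp5k was called lower (1.84-fold, log2 -0.88, limma adjusted p = 0.00103). After centring on all probe sets both kept the call, with limma adjusted p = 0.0278 for Inpp5a and 0.0337 for Inpp5k. Inpp5a was at 0.92, 0.91 and 1.01 on A, B and the array with IL-3, and Inpp5k at -0.87, -0.89 and -0.82, so the BCR-ABL arrays lay close together in each. Inppl1, the close relative of Inpp5d also called SHIP2, was at 0.50 and did not pass (limma adjusted p = 0.0576), and Inpp5j (-0.54), Ocrl (-0.49) and Inpp4a (-0.43) did not pass either. The list's median was -0.16.

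Of 23 AKT and mTOR effectors 0 were called in either comparison, where 8.06% of all genes were called in the first and 0.00502% in the second. In the first the list's median was 0.01, and the kinase genes Akt1 (0.31), Akt2 (-0.02), Pdpk1 (-0.03) and Mtor (0.20) did not pass. Ddit4, a stress-induced inhibitor of mTOR complex 1, had the widest difference at -0.61 (limma adjusted p = 0.147), with -1.03 on A, -0.19 on B and 0.04 with IL-3. A alone was far below the parental array. Ddit4 was also the gene behind the count of 1 of 23 with IL-3 against without, with a difference of 0.64 (limma adjusted p = 0.824). Phlpp2 (0.37), Deptor (0.37) and Tsc1 (-0.38) came next.

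Among 15 PIP3-binding kinases, phospholipases and exchange regulators, the kinase Tec was called higher (0.59, limma adjusted p = 0.0266) and Arap3, a PIP3-dependent GTPase-activating protein, lower (-0.71, limma adjusted p = 0.00678), with a list median of -0.10. Tec was at 0.47, 0.71 and 0.86 and Arap3 at -0.63, -0.79 and -0.67 on A, B and the array with IL-3. Both lost the call after centring on all probe sets (limma adjusted p = 0.13 and 0.0563). The adaptor Dapp1 (-0.45), the kinase Btk (0.34), the phospholipase Plcg1 (-0.30) and Cyth1 (-0.30) did not pass.

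**Figure D4:**
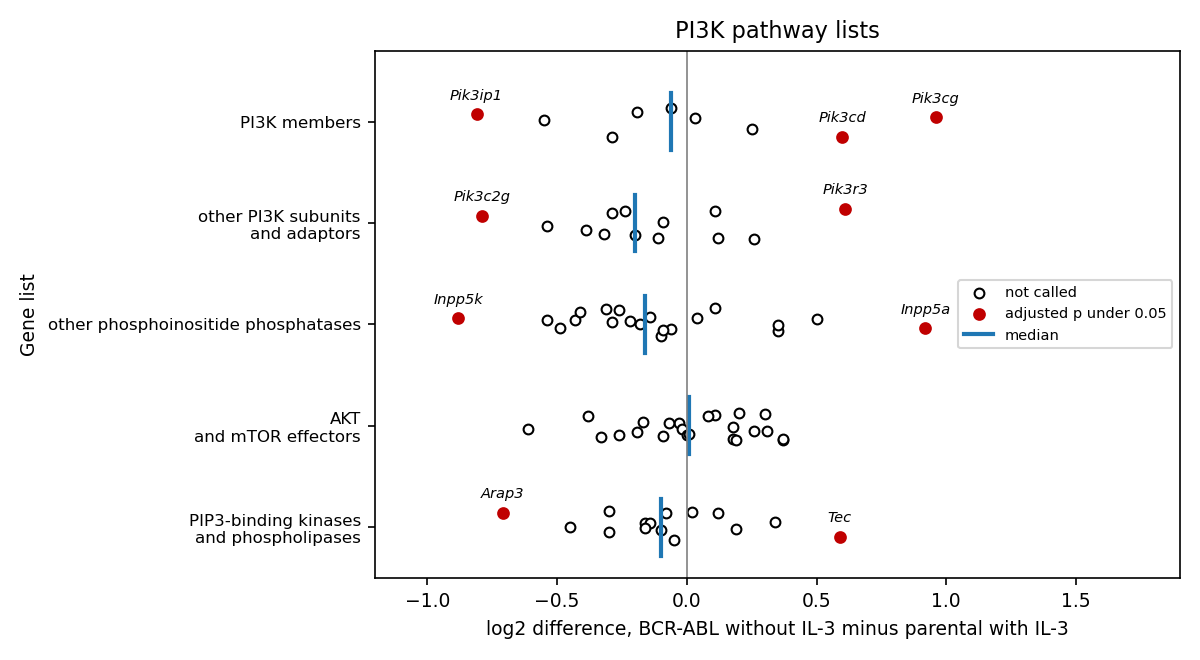
Log2 difference between BCR-ABL cells without IL-3 and parental cells (horizontal axis) for the 9 genes and the measured genes of 4 pathway lists (vertical axis), with a blue bar at each median and red points for an adjusted p under 0.05. The medians run from -0.20 to 0.01, and the AKT and mTOR effectors hold no red point, where 8.06% of all genes were called.

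In the comparisons with parental cells, BCR-ABL and the derived line changed together, and without IL-3 the growth factor changed as well, so their parts cannot be told apart. Whether doxycycline also differed is not given by the labels.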

How the data were processed

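Per the labels' protocols, RNA of 4 samples was converted to biotin-labelled cDNA and hybridised to Affymetrix Gene 1.0 ST arrays. The deposited table holds 28815 probe sets, and the deposited log2 values were taken as differences from the parental column, which is 0 throughout. Background correction, normalization, summarisation and the base of the logarithm are not given in the sources used here. Of the non-zero values 99.67% are whole multiples of 2 to the power -21, within the rounding of the printed digits, the spacing of single-precision numbers from 4 to 8. A probe set with an odd multiple on any array (11202, none of them of the 9 genes) is called dim. An odd multiple needs a stored value under 8 on that array or the parental array, so dim is a coarse sign of low signal.

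Probe sets with 1 symbol in the platform annotation (21780; 1605 had several, 5430 none) were kept and averaged to 19935 genes. One limma fit (version 3.58.1, R 4.3.3) with 3 group means covered all genes. Its 1 residual degree of freedom is A against B, and the empirical Bayes prior had 16.38 degrees of freedom. P-values are two-sided, adjusted by Benjamini and Hochberg over all genes. The fit was also run on simulated data with a common SD for all genes and arrays. That run builds in the assumption that single arrays vary like A and B, so it cannot check that assumption. The members and lists were chosen with earlier results of these data known. All 9 genes were named, and in each list the called genes and up to 4 others with the widest differences; Akt1, Akt2, Pdpk1, Mtor, Pik3r6 and the genes named for the comparison with IL-3 were added after their values were seen. Promoters came from RefSeq (GRCm38.p6). Alternatives were 2 centrings, single probe sets, no dim probe sets, robust empirical Bayes, an adjusted p of 0.1, a 2-fold line and leaving out A or B.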

Additional observations from a re-analysis of the deposited data

How the results depend on the processing

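Every one of the 9 genes kept the sign of its fitted difference under both centrings, with each probe set on its own, without dim probe sets and under robust empirical Bayes, and Pik3cg and Pik3ip1 kept their call in all of these. For these 2 genes the limma adjusted p rose to 0.025 and 0.0392 under centring on all probe sets. Pik3cd lost its call only under centring on all probe sets, where 2 of the 9 genes were called in place of 3. At an adjusted p of 0.1 there were 4, with Inpp5d, and the share of all genes at 0.1 was not taken. With IL-3 against without, 0 of the 9 genes were called under each of these settings and at 0.1. Leaving out A or B leaves no residual degree of freedom and gives values with no test: they ran from 0.92 to 0.99 for Pik3cg, from 0.51 to 0.69 for Pik3cd, from -0.87 to -0.75 for Pik3ip1 and from -0.73 to -0.37 for Inpp5d.

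Among the other PI3K subunits and adaptors 0 genes in place of 2 were called under either centring and 1 without dim probe sets, as Pik3r3 is dim and drops out. Among the PIP3-binding genes 0 in place of 2 were called under centring on all probe sets and 1 under centring on the genes. Among the other phosphatases 5 in place of 2 were called at an adjusted p of 0.1. With a 2-fold line 0 genes in place of 1 lay past it in the comparison of single arrays. Over all genes, the first comparison gave 1035 higher and 572 lower calls, but 384 and 186 after centring on all probe sets and 637 and 299 after centring on the genes, where the prior had 4.206 and 5.016 degrees of freedom. No paired analysis was possible because the labels give no replicate number that groups share. The centring on genes and the alternatives of the nearest genes were chosen after seeing the data; 4 or 5 of the 5 nearest genes stayed in each. With 1 array in 2 of the 3 groups, no setting measures the spread of the parental array or of the array with IL-3.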
